A study of Mus musculus with 7 samples.

Results

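The 10 genes described here encode proteins that move calcium in and out of the endoplasmic reticulum (ER) store or refill it, and they were followed through a comparison of Calr-mutant and wild-type blood stem cells. They are the SERCA pump genes Atp2a2 and Atp2a3, the IP3 receptor genes Itpr1, Itpr2 and Itpr3, the store sensor genes Stim1 and Stim2, and the plasma membrane channel genes Orai1, Orai2 and Orai3. The members were taken by symbol, 10 of the 19649 genes in the deposited gene table, and all 10 passed the filter on low values. SERCA pumps load the ER lumen with calcium, where calreticulin, the product of Calr, is one of the main proteins that binds it. IP3 receptors let that calcium out when surface receptors signal, STIM proteins in the ER membrane sense the loss, and ORAI channels in the plasma membrane open to let calcium in from outside. In blood cells this store-operated entry also feeds calcineurin and the transcription factor NFAT.

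The libraries were RNA-seq of long-term haematopoietic stem cells from mice, sorted as CD48-negative, CD150-positive cells of the lineage-negative, Kit-positive, Sca-1-positive compartment. The control group, called wild-type, was Calr +/+ with the MxCre transgene (4 libraries), and the other group, called mutant, was Calr fl/fl with MxCre, labelled Calr del52/del52 and homozygous (3 libraries). Both groups were pI:pC induced, were sorted 14 days after induction began and had no treatment. MxCre is driven by the Mx1 promoter, which responds to interferon in many tissues and not only in stem cells, and the controls also carried the Cre and received the inducer. The labels give no age, and they do not say that each library came from a separate mouse, so a p-value here covers the spread among the libraries and no more, which may be technical. RNA came from a pool of sorted cells, in which fewer cells of a type and less RNA per cell cannot be told apart.

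Reads counted per library ran from 21325340 to 28710304. Of the 10 genes, Itpr3 had the lowest minimum and maximum (100 and 630 reads) and Atp2a3 the highest maximum (24317). Stim2 reached 656 at most and had fewer reads than Itpr3 in wild-type 3. Wild-type 3 and 4 stood apart from the other 5 libraries: across genes, which are not replicates, Pearson's r was 0.98 within either wild-type pair and 0.93 between the pairs. Long transcripts were relatively high in both, with a slope of log2 deviation on exonic length of 0.24 in each, against -0.18 to 0.01 in the other libraries. Mitochondrial genes took 0.363% to 0.711% of reads in wild-type, lowest in wild-type 3 and 4, and 0.683% to 1.17% in mutant, and the part of this in the results was not tested. Results are therefore given against each wild-type pair as well as against all 4. The stem cell markers were present in every library (10 of 10 in the table, with summed normalized counts, the authors' reads per gene divided by 1 size factor per library, of 37931, 38984, 74135 and 65787 for wild-type 1 to 4 and 37104 to 43400.3 for mutant). Kit, the receptor used in the sort and one of these markers, had normalized counts of 4150.5, 4068, 26511 and 25305 for wild-type 1 to 4 and 2976 to 6677 for mutant. Kit was thus higher in wild-type 3 and 4, as most members were. Ly6a, the gene of Sca-1, was lower there, with 4838, 6363, 2323 and 2407 for wild-type 1 to 4. Slamf1, the gene of CD150, was lower there too, with 1778, 1931, 1416 and 1422. The part of these sort receptors in the members' difference was not tested. Markers of cells excluded by the sort summed to 329 to 742 and 268 to 317 (6 of 8 in the table). Neutrophil and monocyte markers (12 of 12 in the table, none at 0) summed to 42032 to 83069 in wild-type, to 46435 in mutant 1 and to 10345 and 12820.4 in mutant 2 and 3. Megakaryocyte markers (7 of 8 in the table) summed to 9479.7 to 20710.1 in wild-type and 6378 to 13217 in mutant, and erythroid markers (8 of 8) to 35397 to 57107 and 56685 to 71066. Lymphoid markers (5 of 10) summed to 969.6 to 1656 and 1368 to 1794. For mast cell and basophil markers (7 of 7) the sums were 289 to 479.96 and 98.2 to 251. Car2 made up most of the erythroid sum (33365 to 51861 and 54236 to 66997). Cd79b made up most of the lymphoid sum (866 to 1566 and 1289 to 1770). Means of log2(normalized count + 1) over the erythroid list were 8.16 to 9.62 in wild-type and 7.63 to 9.23 in mutant. Over the lymphoid list they were 4.82 to 5.78 and 4.17 to 4.89. No listed marker was at 0 in all libraries. The part of these cells in the results was not tested. Calr itself had 16783 ± 1259 normalized counts (SD, n = 4) in wild-type and 15093 ± 767 (SD, n = 3) in mutant, and the exact permutation test gave a two-sided p of 0.0857 (the smallest possible is 0.0286). The allele alters coding sequence, so its level is a weak check of the labels. The libraries were unstranded, and 4 of the 10 genes share exonic bases with another annotated gene, at most 2.58% of them (Itpr3 with its antisense gene Itpr3os).

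Promoters of 8 of the 10 genes were matched in the RefSeq table (GRCm38.p6). The 250 bases before the start site are printed for Orai1 (chr5:123014824-123015073, plus strand), whose counts did not overlap between genotypes on the higher side, for Itpr3 (chr17:27057054-27057303, plus strand), whose counts did not overlap on the lower side, for Atp2a3 (chr11:72960919-72961168, plus strand), which differed most between wild-type pairs, and for Orai3 (chr7:127769565-127769814, plus strand), the member with lower counts in wild-type 3 and 4 than in wild-type 1 and 2. Capitals mark CCAAT boxes (CCAAT), GC boxes (GGGCGG) and the E box CACGTG on either strand, and neighbouring GC boxes can share a base.
Orai1: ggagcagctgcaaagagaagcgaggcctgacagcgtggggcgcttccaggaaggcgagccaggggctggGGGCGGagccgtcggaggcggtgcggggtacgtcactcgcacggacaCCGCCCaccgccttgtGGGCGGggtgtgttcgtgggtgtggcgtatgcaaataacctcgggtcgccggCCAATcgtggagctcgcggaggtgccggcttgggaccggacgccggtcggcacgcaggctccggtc
Itpr3: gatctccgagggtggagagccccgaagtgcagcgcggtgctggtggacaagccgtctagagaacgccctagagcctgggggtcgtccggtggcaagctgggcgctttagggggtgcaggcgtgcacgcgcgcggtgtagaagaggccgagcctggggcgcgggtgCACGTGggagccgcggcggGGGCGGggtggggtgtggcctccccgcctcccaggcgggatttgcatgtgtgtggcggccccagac
Atp2a3: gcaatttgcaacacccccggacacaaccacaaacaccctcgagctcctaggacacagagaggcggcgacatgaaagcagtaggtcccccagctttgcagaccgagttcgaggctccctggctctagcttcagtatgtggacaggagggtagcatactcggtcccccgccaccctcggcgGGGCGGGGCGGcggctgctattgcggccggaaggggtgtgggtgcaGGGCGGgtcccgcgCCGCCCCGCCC
Orai3: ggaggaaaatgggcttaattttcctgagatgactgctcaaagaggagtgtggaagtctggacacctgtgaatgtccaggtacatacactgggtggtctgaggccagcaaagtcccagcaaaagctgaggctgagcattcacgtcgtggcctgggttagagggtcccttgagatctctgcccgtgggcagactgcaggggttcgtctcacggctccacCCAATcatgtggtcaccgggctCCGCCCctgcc
Of 32851 RefSeq windows of the same length, 33.8% held a CCAAT box, 32.7% a GC box and 6.02% the E box. Orai1 had 1 CCAAT box and 3 GC boxes, Orai3 had 1 of each, Itpr3 had 1 GC box and 1 E box, and Atp2a3 had 5 GC boxes. The core of the unfolded protein response element (TGACGTGG, either strand), a motif bound by XBP1 in ER stress, was held by 0.563% of windows and by 0 of the 8.

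Over all 7 libraries the 10 genes split into 2 with a higher mutant mean, Orai1 and Orai3, and 8 with a lower one. Their median log2 difference (mutant minus wild-type, of log2 normalized counts) was -0.53, against 0.00 for all 16047 genes tested. None passed the limma test (0 of 10 at an adjusted p of 0.05, against 0.0% of all genes tested). Itpr1, Itpr3 and Orai1 had an unadjusted p under 0.05 (3 of 10, against 8.51% of genes). On the reads, edgeR also called 0 members (3 unadjusted, against 10.2% of genes) and DESeq2 called 0 (4 unadjusted, against 14.6%). The groups did not overlap for Orai1, where every mutant library was higher (1 of 10, against 5.23% of genes), and for Itpr3, where every mutant library was lower (1 of 10, against 4.34%).

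The 2 wild-type pairs gave different pictures for the members. Against wild-type 1 and 2, 8 of the 10 genes had a positive difference, the median was 0.06, and limma called 0 members, against 0.318% of all genes (1 unadjusted, against 9.59%). The same counts came from edgeR (0 called against 0.131%, 1 unadjusted against 9.27%) and DESeq2 (0 called against 1.75%, 1 unadjusted against 9.04%). Orai1 was again the member with every mutant library higher (1 of 10, against 13.9% of genes) and Itpr3 the member with every mutant library lower (1 of 10, against 12.4%). Against wild-type 3 and 4, limma called 6 of 10 lower in the mutant (Atp2a2, Atp2a3, Itpr1, Itpr3, Stim1 and Orai2), where 22.8% of all genes were called lower, and 0 higher, where 19.7% were. Groups did not overlap in that comparison for all 10 members, 8 lower and 2 higher, where the shares of all genes were 33.8% and 33.8%. The calls depended on single libraries. Without mutant 2, 9 members were called (Itpr2 lower, and Orai1 and Orai3 higher, were added), where 8760 of all 16047 genes were called. Itpr1 and Orai2 were no longer called without wild-type 3, and Atp2a2 was no longer called without wild-type 4. A single wild-type library stands in those last fits, and it is assumed to vary as the others do. Both comparisons use the same mutant libraries and are not independent.

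Within the wild-type group, wild-type 3 and 4 had the higher mean for 9 of the 10 genes, with a median log2 difference of 1.08 against 0.01 for all genes. Limma called 7 of 10 higher there (the 6 above and Itpr2), where 29.6% of all genes were called higher, and 0 lower, where 25.3% were. The pairs did not overlap for 8 members on the higher side (39.2% of genes) and for Orai3 on the lower side (38.0%). Itpr2 was no longer called without wild-type 1 or without wild-type 3, and Orai3 was called lower without wild-type 2. Each of these fits leaves a single library in a pair, assumed to vary as the others do. The plot of normalized counts by library shows this order for each gene.

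**Figure D1:**
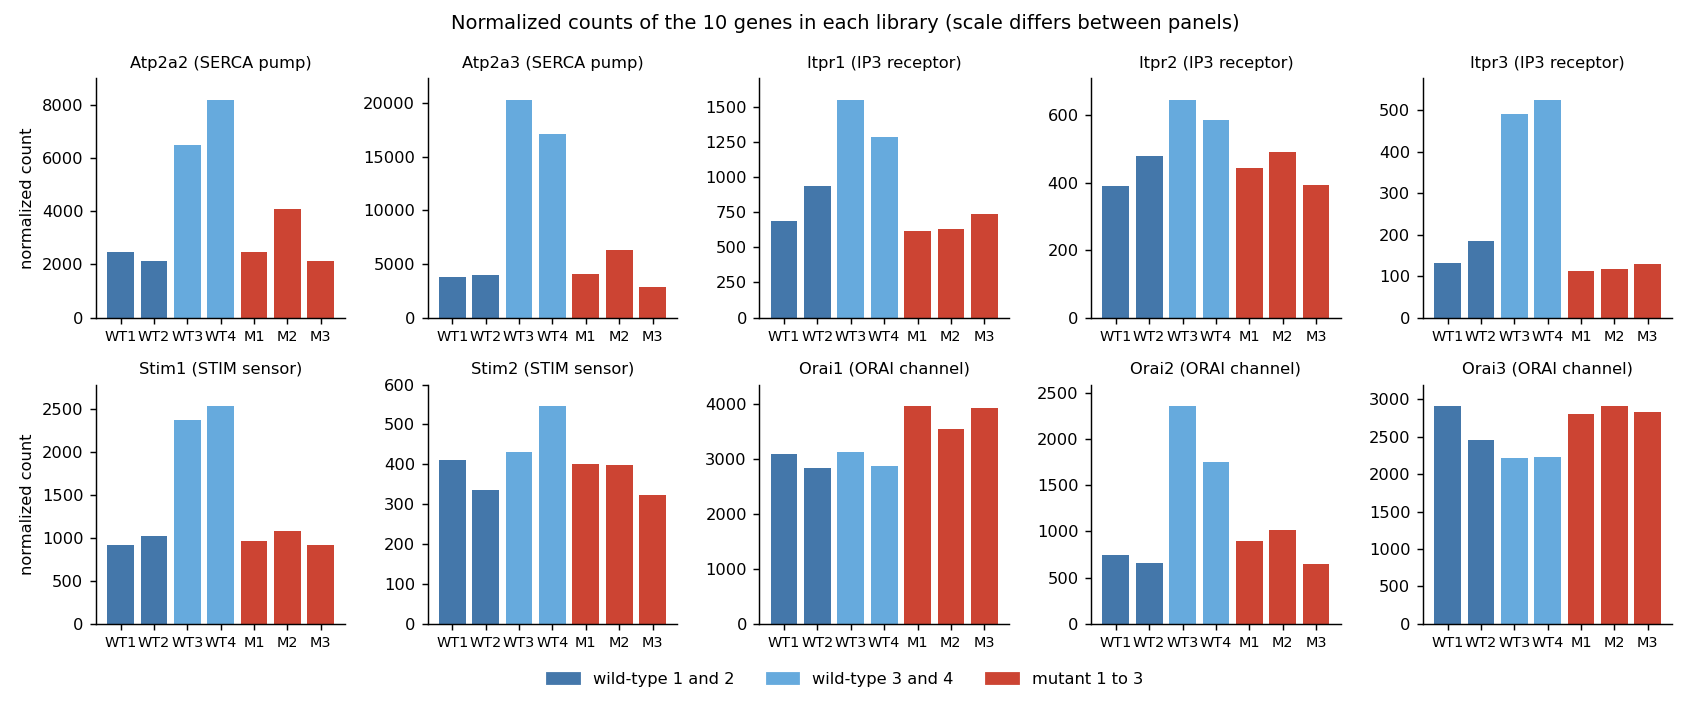
Normalized counts (vertical axis, from 0, scale differing between panels) of the 10 genes in each of the 4 wild-type (WT) and 3 mutant libraries (horizontal axis), 1 bar per library. Bars of WT3 and WT4 are the tallest for 8 of the 10 genes; for Orai1 the 3 mutant bars are the tallest, and for Itpr3 the 3 mutant bars are the shortest.

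Both SERCA pump genes followed the wild-type pairs. Atp2a3 (chr11:72961169-72993044, plus strand), which encodes SERCA3, the pump of blood cells and other non-muscle cells, had normalized counts of 3765 and 3930.1 for wild-type 1 and 2, 20285 and 17124 for wild-type 3 and 4, and 4109, 6345 and 2882 for mutant 1 to 3. The mutant libraries lay on both sides of wild-type 1 and 2 and far below wild-type 3 and 4. The log2 difference was 0.13 (SE 0.28) against the first pair and -2.14 (SE 0.29, limma adjusted p = 0.00151) against the second. Between the wild-type pairs it was 2.28 (adjusted p = 9.99e-07), a ratio of 4.86 and the largest log2 difference among the members.

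Atp2a2 (chr5:122453513-122502225, minus strand) encodes SERCA2, the widely expressed pump. It had normalized counts of 2444, 2140.1, 6466 and 8163 for wild-type 1 to 4 and 2456, 4073 and 2138 for mutant 1 to 3. Mutant 2 lay between the wild-type pairs and the other mutant libraries lay with wild-type 1 and 2. Mutant minus wild-type, the log2 value was 0.28 (SE 0.25) against wild-type 1 and 2 and -1.39 (SE 0.27, limma adjusted p = 0.00587) against wild-type 3 and 4.

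In FPKM, the deposited level per transcript length, the SERCA genes together stood at 51.7 and 53.8 for wild-type 1 and 2, 236 and 223 for wild-type 3 and 4, and 56.2, 86.1 and 42.9 for mutant 1 to 3. Atp2a3 made up 60.2%, 64.9%, 76.7% and 68.9% of that sum for wild-type 1 to 4 and 64.1%, 60.6% and 57.5% for mutant. The pumps therefore kept the same order in every library, with Atp2a3 above Atp2a2. By isoform, 87.4% of Atp2a2 FPKM was in Atp2a2-201, whose annotated product of 1044 residues is the long, non-muscle form SERCA2b. The muscle form of 998 residues, Atp2a2-202, was under 1 FPKM in every library (0.05 to 0.56). For Atp2a3, 74.1% was in Atp2a3-201, of 1038 residues.

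The IP3 receptor genes included both members with a negative difference against either wild-type pair, Itpr1 and Itpr3. Itpr3 (chr17:27057304-27122223, plus strand) encodes the type 3 receptor, an ER channel opened by IP3. It had normalized counts of 132, 184, 490.5 and 524 for wild-type 1 to 4 and 112, 116 and 128 for mutant 1 to 3, means of 333 ± 203 (SD, n = 4) and 119 ± 8.29 (SD, n = 3). All 3 mutant values were under the lowest wild-type value, although mutant 3 and wild-type 1 were separated by little. The log2 difference was -1.24 (SE 0.50, limma adjusted p = 0.538) over 7 libraries and -0.39 (SE 0.26, adjusted p = 0.703) against wild-type 1 and 2. It was -2.09 (SE 0.21, adjusted p = 0.000468) against wild-type 3 and 4, so its direction held with either pair while its size did not. Itpr3 in FPKM was not analysed here.

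Itpr1 (chr6:108213096-108551109, plus strand), the type 1 receptor, had normalized counts of 685, 935, 1549.9 and 1285 for wild-type 1 to 4 and 617, 630.4 and 739 for mutant 1 to 3. The mutant libraries overlapped wild-type 1 and were below the other 3 wild-type libraries. On the log2 scale the difference was -0.69 (SE 0.29) over 7 libraries, -0.28 (SE 0.20) against wild-type 1 and 2 and -1.09 (SE 0.17, limma adjusted p = 0.00287) against wild-type 3 and 4. In summed FPKM Itpr1 had 6.05 ± 2.28 (n = 4) in wild-type and 3.19 ± 0.27 (n = 3) in mutant, with no overlap between the groups. The share of all genes without overlap in summed FPKM was not computed. In its coding transcripts alone the groups overlapped, at 1.93 to 5.67 FPKM in wild-type and 1.84 to 2.05 in mutant.

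Itpr2 (chr6:146108299-146502223, minus strand), the type 2 receptor, varied least of the 3: it had normalized counts of 390.0, 480.0, 645 and 585 for wild-type 1 to 4 and 444, 491 and 393 for mutant 1 to 3. The mutant range lay across wild-type 1 and 2, and the log2 difference there was 0.03 (SE 0.20). Most of its FPKM was not in full-length coding transcripts: 46.2% was in Itpr2-203, a processed transcript of 582 bases, 24.6% in Itpr2-206, a nonsense-mediated decay transcript, and 21.7% in Itpr2-208, a retained intron. Itpr2-203 had 5.37, 6.59, 4.46 and 5.26 FPKM for wild-type 1 to 4 and 2.14, 3.70 and 1.46 for mutant 1 to 3, so every mutant library was lower. Its log2 difference of -0.95 (SE 0.27) did not pass the limma test over 30156 transcripts (adjusted p = 0.661). In summed FPKM Itpr2, like Itpr1, did not overlap between the groups, at 9.51 to 11.4 in wild-type and 5.68 to 8.72 in mutant. No share of all genes was computed for this. Coding transcripts of Itpr2 summed to 0.16 to 1.24 FPKM per library, and in them the groups overlapped.

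STIM1 senses large falls of ER calcium, and its gene followed the wild-type pairs as the pumps did. Stim1 (chr7:102267806-102437319, plus strand) had normalized counts of 917, 1020.2, 2368 and 2531 for wild-type 1 to 4 and 963, 1074 and 919.5 for mutant 1 to 3. The mutant libraries were level with wild-type 1 and 2 and all below wild-type 3 and 4. Its log2 difference was 0.02 (SE 0.17) against wild-type 1 and 2, -1.32 (SE 0.15, limma adjusted p = 0.000752) against wild-type 3 and 4 and -0.65 (SE 0.39, adjusted p = 0.538) over all.

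Stim2 (chr5:53998499-54121057, plus strand) encodes the more sensitive sensor that responds to small falls. It had normalized counts of 411, 335, 430.4 and 545 for wild-type 1 to 4 and 402, 399 and 323 for mutant 1 to 3, and passed the test in none of the comparisons. Its log2 difference was 0.01 (SE 0.21) against wild-type 1 and 2 and -0.38 (SE 0.20, adjusted p = 0.166) against wild-type 3 and 4. Stim1 made up 72.7%, 79.1%, 85.0% and 83.4% of STIM FPKM for wild-type 1 to 4 and 75.4%, 75.8% and 77.1% for mutant 1 to 3. Most Stim1 FPKM (68.0%) was in Stim1-201, of 685 residues, and most Stim2 FPKM (72.5%) in Stim2-201, of 746 residues.

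Orai1 was the member whose mutant difference was nearly the same size with either wild-type pair. Orai1 (chr5:123015074-123030456, plus strand) encodes the pore of the main store-operated channel. It had normalized counts of 3089, 2835, 3119.8 and 2873 for wild-type 1 to 4 and 3958, 3549 and 3931 for mutant 1 to 3, means of 2979 ± 146 (SD, n = 4) and 3812 ± 229 (SD, n = 3), a ratio of 1.28. The lowest mutant library was above the highest wild-type library, and the wild-type pairs overlapped each other. Over 7 libraries the log2 difference was 0.36 (SE 0.14), with an unadjusted limma p of 0.0377 that did not survive adjustment over 16047 genes (adjusted p = 0.538). It was 0.36 (SE 0.15, adjusted p = 0.475) against wild-type 1 and 2 and 0.35 (SE 0.14, adjusted p = 0.0780) against wild-type 3 and 4. With any 1 of the 7 libraries left out, the difference over the rest lay between 0.33 and 0.41. Between the wild-type pairs it was 0.02 (SE 0.10). Because both comparisons use the same mutant libraries, the gap between their log2 differences is this same wild-type difference. That gap was within 0.05 for 3.93% of all genes, as it was for Orai1.

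**Figure D2:**
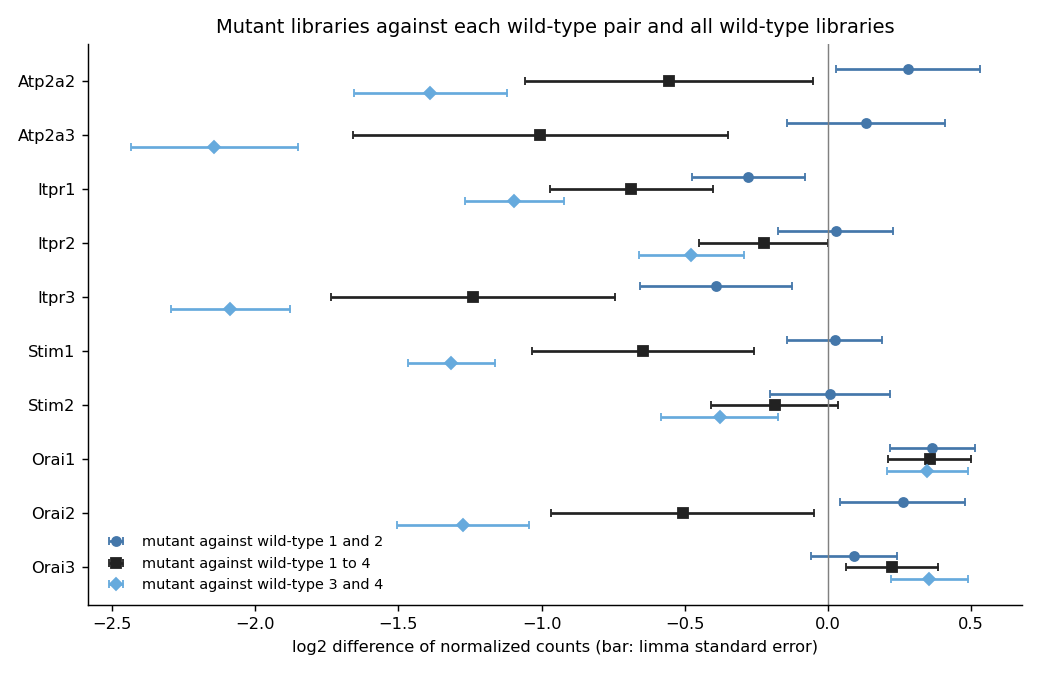
Log2 difference of normalized counts (horizontal axis; points are estimates, bars limma standard errors) for each of the 10 genes (vertical axis), mutant against wild-type 1 and 2, against wild-type 3 and 4 and against all 4. Points of the pairs are far apart for Atp2a3 (0.13 and -2.14) and nearly coincide for Orai1 (0.36 and 0.35); the comparisons share the mutant libraries.

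The main Orai1 transcripts had the same sign of difference as the gene. Orai1-201 and Orai1-202 both encode 304 residues and held 64.6% and 31.6% of its FPKM. Orai1-201 had 48.3, 43.1, 47.3 and 43.6 FPKM for wild-type 1 to 4 and 62.4, 53.8 and 65.6 for mutant 1 to 3 (log2 0.40, SE 0.17, limma adjusted p = 0.661). Orai1-202 had 22.4, 23.1, 24.9 and 23.3 for wild-type and 29.9, 26.6 and 27.9 for mutant (log2 0.25, SE 0.16, adjusted p = 0.661). Neither passed, and in both the mutant libraries were all above the wild-type libraries. Of the 22 member transcripts tested, these were 2 with non-overlapping groups on the higher side, against 4.27% of all transcripts, and Itpr2-203 was 1 on the lower side, against 3.82%. Limma called 0 of the 22 (2 unadjusted), against 0.0% of 30156 transcripts (6.89% unadjusted).

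Orai3 (chr7:127769815-127775150, plus strand) encodes a store-operated channel subunit found in mammals. It had normalized counts of 2907, 2454, 2218 and 2234 for wild-type 1 to 4 and 2805, 2907 and 2825 for mutant 1 to 3, means of 2453 ± 321 and 2846 ± 54.5. The mutant libraries were close together, above wild-type 2, 3 and 4 and level with wild-type 1. The log2 difference was 0.22 (SE 0.16, limma adjusted p = 0.547) over all, 0.09 (SE 0.15) against wild-type 1 and 2 and 0.35 (SE 0.13, adjusted p = 0.0637) against wild-type 3 and 4.

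Orai2 (chr5:136147459-136170713, minus strand), a channel subunit that lowers store-operated currents when it assembles with Orai1 in T cells, followed the wild-type pairs as the pumps did. It had normalized counts of 741, 659, 2355 and 1747 for wild-type 1 to 4 and 896, 1019.8 and 643 for mutant 1 to 3. Mutant 3 lay just below wild-type 2, mutant 1 and 2 lay above wild-type 1, and all 3 were below wild-type 3 and 4. The log2 difference was 0.26 (SE 0.22) against wild-type 1 and 2 and -1.27 (SE 0.23, limma adjusted p = 0.00485) against wild-type 3 and 4.

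The channel family as a whole had more FPKM in mutant libraries. The sum of Orai1, Orai2 and Orai3 was 138, 124, 144 and 132 for wild-type 1 to 4 and 160, 149.9 and 160 for mutant 1 to 3, with no overlap. Orai1 made up 53.4%, 55.2%, 52.5% and 52.6% of that sum for wild-type and 60.0%, 55.9% and 60.2% for mutant. The share of Orai2 was 6.69% and 6.28% for wild-type 1 and 2, 17.7% and 14.5% for wild-type 3 and 4, and 5.50% to 7.50% for mutant. The share of Orai1 was thus higher in each mutant library than in any wild-type library, by little for mutant 2. The FPKM ratio of Orai1 to Stim1, a channel gene to its sensor, was 7.41, 6.16, 3.01 and 2.697 for wild-type 1 to 4 and 9.31, 7.56 and 9.75 for mutant 1 to 3. These sums and ratios were described, not tested, and no share of all genes was computed for them.

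**Figure D3:**
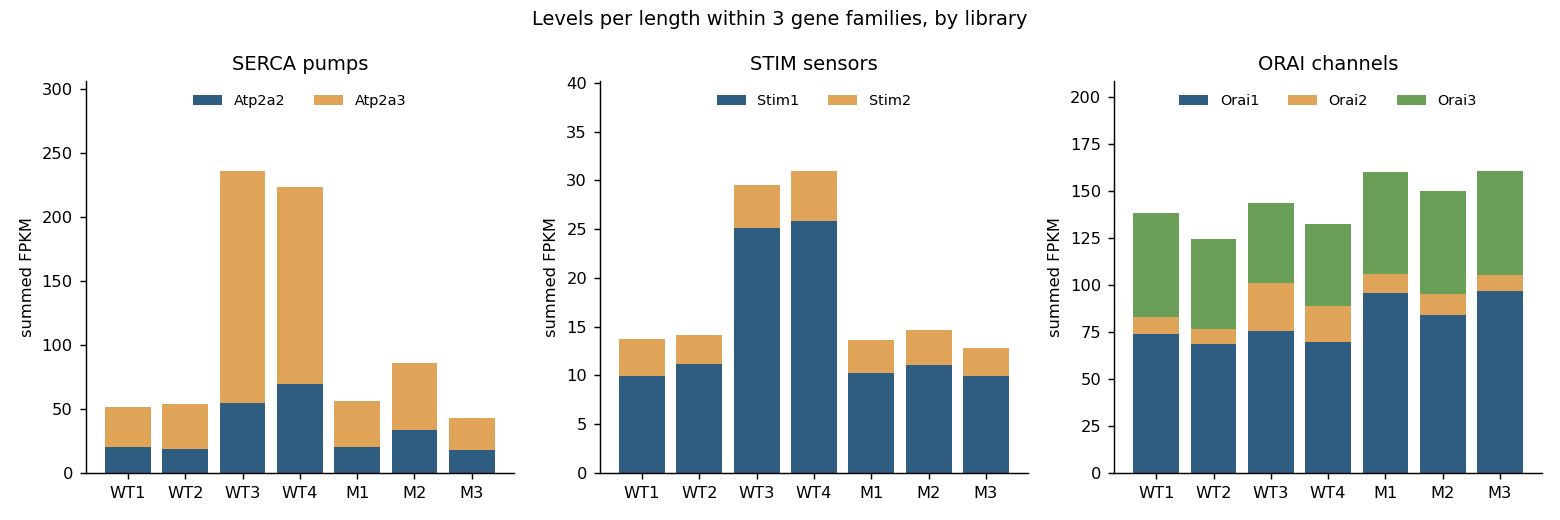
Summed FPKM (vertical axis, from 0) of the SERCA, STIM and ORAI genes in each library (horizontal axis), stacked by gene. The SERCA bars of wild-type 3 and 4 reach 236 and 223, against 42.9 to 86.1 in the other 5 libraries, while the ORAI bars run from 124 to 160 across all 7.

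Between genes, levels per length had this order in the mutant libraries (means of summed FPKM, n = 3): Orai1 92.1, Orai3 54.6, Atp2a3 37.6, Atp2a2 24.1, Stim1 10.4, Orai2 10.03, Itpr2 7.10, Stim2 3.28 and Itpr1 3.19. The ranges of Atp2a3 and Atp2a2, of Stim1 and Orai2, and of Stim2 and Itpr1 overlapped, and the other neighbours were apart. Wild-type 1 and 2 had Orai1, Orai3, Atp2a3 and Atp2a2 in the same leading order (71.3, 51.5, 33.0 and 19.8). In wild-type 3 and 4 the order began with Atp2a3 at 167, followed by Orai1 at 72.4, Atp2a2 at 62.2 and Orai3 at 43.1. Orai1 was the highest of the 9 genes in 5 libraries, and Atp2a3 in the other two.

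The members differed in exonic length as well as between the wild-type pairs. Orai1 was level between the pairs (log2 0.02), and Orai3 was lower in wild-type 3 and 4 (-0.26, limma adjusted p = 0.0714). The other 8 were higher there, Stim2 without a limma call (0.39, adjusted p = 0.0988). Orai1 and Orai3 are the shortest members, at 2295 and 2141 exonic bases, with 27.0% and 24.8% of tested genes shorter. The other 8 ran from 5133 (Stim2) to 18319 bases (Itpr1, with 99.1% of tested genes shorter), and the median of the 10 was 6079, against 3788 for all genes with a length. Spearman's rho of exonic length with the difference between wild-type pairs was 0.51 across 15736 genes and 0.38 across the 10 members, descriptions of genes that share libraries. Within the members the orders by length and by difference were not the same: Atp2a3, of 5281 bases, differed by 2.28 between the pairs, and Itpr2, of 14802 bases, by 0.50 (adjusted p = 0.0214). Fitting each library's length slope as a covariate moved the members' median to 0.04, and left Orai1 at 0.34 (SE 0.10, limma adjusted p = 0.144), Itpr3 at -0.55 (SE 0.27, adjusted p = 0.358) and Itpr1 at -0.37 (SE 0.19, adjusted p = 0.376). In that fit limma called 0 of 10 members (1 unadjusted, Orai1), against 0.791% of all genes. What made wild-type 3 and 4 differ was not tested.

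**Figure D4:**
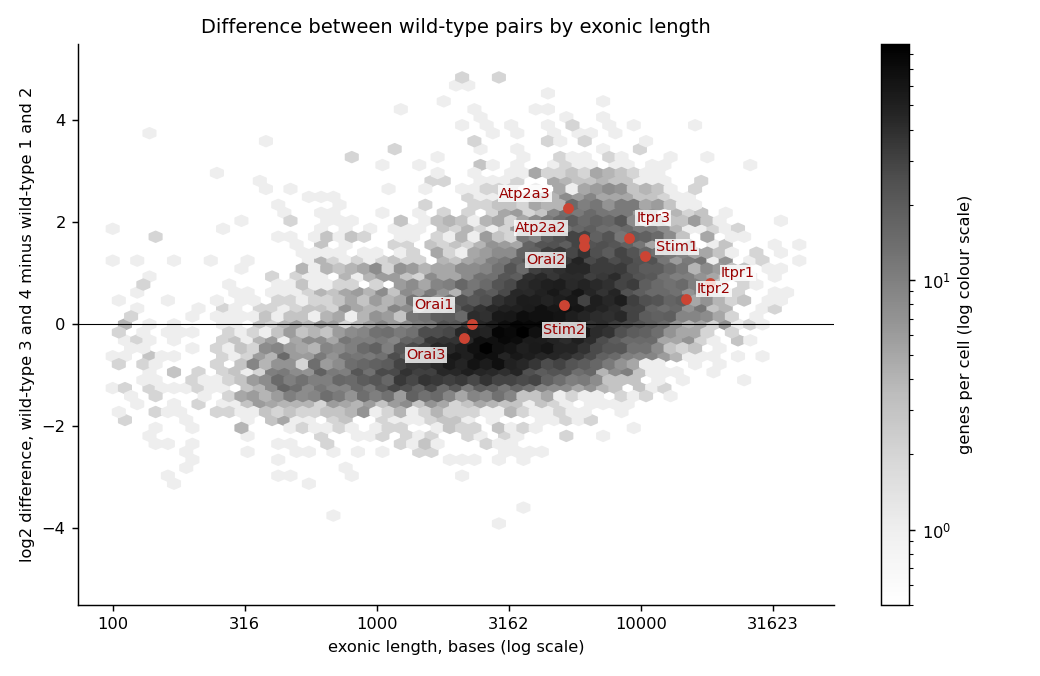
Log2 difference between wild-type 3 and 4 and wild-type 1 and 2 (vertical axis) against exonic length in bases (horizontal axis, log scale); grey shading counts all tested genes and marked points are the 10 genes. Orai1 (0.02) and Orai3 (-0.26) lie at the short end, and Atp2a3 (2.28) is the highest of the marked points.

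The titles of wild-type 3 and 4 and of mutant 1 and 2 carry numbers of 1 series (62xx), and those of the other 3 libraries do not. Whether the series marks a batch is not stated in the labels, and within the wild-type group the series and the pairs cannot be told apart. Within the series, mutant 1 and 2 against wild-type 3 and 4, limma called 6 members lower (Atp2a2 -1.20, Atp2a3 -1.87, Itpr1 -1.18, Itpr3 -2.14, Stim1 -1.27 and Orai2 -1.08), where 21.1% of all genes were called lower. Outside it, mutant 3 against wild-type 1 and 2, limma called 0 members (2 had an unadjusted p under 0.05, Atp2a3 at -0.42 and Orai1 at 0.41), against 6.37% of all genes. A single mutant library stands in that last fit, and it is assumed to vary as the others do. With the series as a covariate 5 members were called lower (Atp2a3, Itpr1, Itpr3, Stim1 and Orai2), where 12.5% of all genes were. Orai1 was 0.32 (adjusted p = 0.108) within the series, 0.41 (adjusted p = 0.0952) outside it and 0.36 (adjusted p = 0.0568) with the covariate, so its sign and approximate size were the same in each.

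Other calcium genes were read from 8 lists (116 genes, 102 of them present in the table and 92 tested). Genes named from each list were the 2 of smallest limma p over 7 libraries, so their separation between groups follows in part from that choice. Limma called 0 of the 92 over 7 libraries (9 unadjusted, against 8.51% of all genes). On the reads edgeR called 0 (13 unadjusted, against 10.2%), and DESeq2 called 2, against 0.667% (18 unadjusted, against 14.6%). The median log2 difference of the 92 was -0.16, with 37 positive and 55 negative. Groups did not overlap for 9 higher and 7 lower, where 5.23% and 4.34% of all genes did not. Against wild-type 1 and 2 the median was 0.04 and limma called 0 of the 92, against 0.318% of all genes (12 unadjusted, against 9.59%). There edgeR called 0, against 0.131% (12 unadjusted, against 9.27%), and DESeq2 called 4 (Bcl2, Cracr2b, Sept4 and Pdia4), against 1.75% (12 unadjusted, against 9.04%). Against wild-type 3 and 4 the median was -0.25, and limma called 18 of the 92 higher and 33 lower, where 19.7% and 22.8% of all genes were called.

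Regulators of STIM and ORAI were split by sign: of 12 tested, 7 were positive over 7 libraries, 8 against wild-type 1 and 2 and 6 against wild-type 3 and 4. Every mutant library was higher for 3 of the 12, against 5.23% of all genes. Cracr2b, a calcium-binding relative of the ORAI1 regulator Cracr2a, had normalized counts of 418, 381, 398 and 444 for wild-type 1 to 4 and 837, 584 and 648 for mutant 1 to 3. Its log2 difference was 0.73 (SE 0.19, limma adjusted p = 0.538; DESeq2 adjusted p = 0.0414), with 0.77 against wild-type 1 and 2 and 0.70 against wild-type 3 and 4. Sept4, a septin of the family that arranges the membrane around STIM1 and ORAI1, had 293, 302, 226 and 410.0 for wild-type and 627, 455 and 527 for mutant (log2 0.82, SE 0.25, limma adjusted p = 0.538). In both genes the mutant libraries were all above the wild-type libraries. Neither passed limma's test over 7 libraries or against wild-type 1 and 2. Both passed it against wild-type 3 and 4 (adjusted p = 0.0252 and 0.0448), where 19.7% of all genes were called higher.

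Other pumps, channels and partners were mixed. Among pumps and exchangers, 2 of 7 tested were positive over 7 libraries and 3 against wild-type 1 and 2. Slc24a5, a sodium-calcium-potassium exchanger of intracellular membranes, had 754 ± 92.2 normalized counts (n = 4) in wild-type and 1236 ± 94.4 (n = 3) in mutant (log2 0.72, SE 0.17, limma adjusted p = 0.538; DESeq2 adjusted p = 0.0292). Slc24a3, a plasma membrane exchanger of the same family, had 65.7 ± 12.2 and 37.0 ± 9.16 (log2 -0.82, SE 0.30, limma adjusted p = 0.538). Neither exchanger overlapped between genotypes: 1 of the 7 was higher, against 5.23% of all genes, and 1 lower, against 4.34%. Of 9 release and leak channels tested, 8 were negative over 7 libraries and against wild-type 3 and 4, and 3 were negative against wild-type 1 and 2 (median 0.10). Tmco1, described as an ER calcium leak channel, was the positive one over 7 libraries, at 0.47 (SE 0.26), from 0.08 against wild-type 1 and 2 and 0.86 against wild-type 3 and 4. Tpcn1, a channel of endosomes and lysosomes, was at -0.45 (SE 0.27).

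Of 13 partners of the IP3 receptors tested, 10 were negative over 7 libraries, 7 against wild-type 1 and 2 and 8 against wild-type 3 and 4. Bcl2, the survival protein that also binds IP3 receptors on the ER, had normalized counts of 3168, 3843, 3310.0 and 2555 for wild-type 1 to 4 and 2253, 2432 and 1856 for mutant 1 to 3. For Bcl2 every mutant library was lower. Groups did not overlap for 3 of the 13 on the lower side, against 4.34% of all genes, and for 1 on the higher side, against 5.23%. The Bcl2 log2 difference was -0.56 (SE 0.19, limma adjusted p = 0.538) over all, -0.69 against wild-type 1 and 2 and -0.42 against wild-type 3 and 4. Ahcyl2, a relative of the receptor-binding protein IRBIT, was at -0.78 (SE 0.35), of which -0.21 against wild-type 1 and 2 and -1.36 against wild-type 3 and 4.

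Enzymes that make and remove IP3 differed in sign between the comparisons with the wild-type pairs. Of 11 tested, 10 were negative over 7 libraries, 7 were positive against wild-type 1 and 2, and 10 were called lower against wild-type 3 and 4, where 22.8% of all genes were. Plcb2, a phospholipase C that makes IP3, had normalized counts of 2216, 2784, 6104 and 6071 for wild-type 1 to 4 and 2452, 2467 and 2051 for mutant 1 to 3, level with wild-type 1 and 2. Plcb1, another such enzyme, was lower in every mutant library (250.2 ± 39.6 and 179.9 ± 31.6, log2 -0.48, SE 0.23, limma adjusted p = 0.538). It was 1 of the 11 without overlap on the lower side, against 4.34% of all genes.

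Proteins that bind calcium or fold others in the ER lumen had 9 of 13 positive over 7 libraries and 8 against wild-type 1 and 2. Groups did not overlap for 4 of the 13 on the higher side, against 5.23% of all genes, and for 1, Calr, on the lower side, against 4.34%. Pdia4 and Pdia3, disulfide isomerases, led the list at 0.70 (0.70 and 0.69 against the pairs) and 0.82 (0.51 and 1.13), with limma adjusted p = 0.538 for each. Of the mitochondrial uptake genes, 8 of 11 were positive over 7 libraries and 2 against wild-type 1 and 2. Vdac1, the outer membrane channel, was at 0.75 over all and at -0.07 and 1.58 against the pairs. Letm1, an ion exchanger of the inner membrane, was at -0.26 (-0.25 and -0.27). Downstream, 6 of 16 genes of calcineurin, NFAT and calmodulin signalling were positive over 7 libraries and 8 against wild-type 1 and 2. Nfatc2, a transcription factor activated by calcineurin, had normalized counts of 343, 410.4, 1529.9 and 1785 for wild-type 1 to 4 and 359, 449 and 313 for mutant 1 to 3, the mutant libraries level with wild-type 1 and 2. Camk2g, a calmodulin-dependent kinase subunit, was at -0.40 (-0.36 and -0.44).

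**Figure D5:**
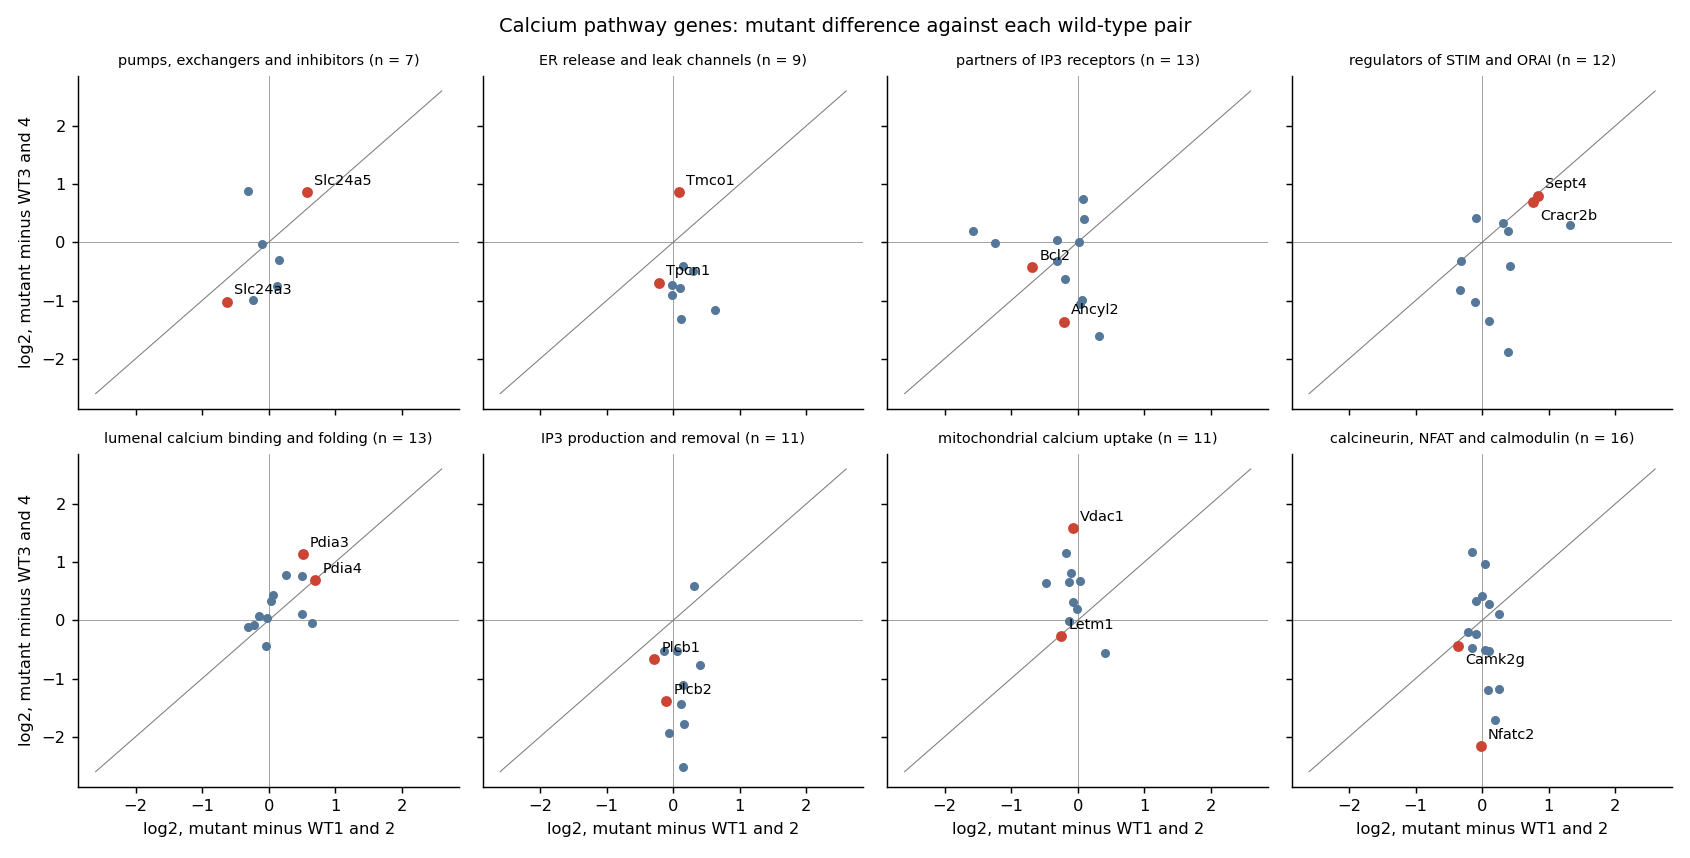
Log2 difference, mutant minus wild-type 1 and 2 (horizontal axis) against mutant minus wild-type 3 and 4 (vertical axis), 1 panel per list and 1 point per tested gene. Both axes use the same mutant libraries; genes of IP3 production lie mostly below 0 on the vertical axis (10 of 11) and on both sides of 0 on the horizontal axis (7 positive, 4 negative).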

How the data were processed

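RNA-seq of sorted stem cells was compared between 4 wild-type and 3 mutant libraries. The submitters' processing notes name the build GRCm38, the aligner STAR 2.7.3a, the counter HTSeq 0.6.1, FastQC 0.11.7, DESeq2 1.12.4 and Cufflinks 2.2.1. Per the labels' protocols RNA was amplified with SMART-Seq v4 and the libraries were unstranded. For 19649 genes the authors deposited a signal per library, the normalized count. In every library 100% of its values were whole multiples of 1 step (tolerance 0.01 reads), so whole reads were recovered (21325340 to 28710304 per library). The second table deposited by the authors gave FPKM for 66660 transcripts. Options and filters of these steps are not stated there. GENCODE vM21 matched 19193 genes (97.7%) and 66080 transcripts (99.1%). Because normalized counts are not raw counts, the main test was limma 3.58.1 (R 4.3.3) with a variance trend on log2(normalized count + 1), over 16047 genes with at least 10 in at least 3 libraries. Differences on that scale understate changes of low genes. Transcripts reaching FPKM 1 in 3 or more libraries were tested on log2(FPKM + 1). Tests were two-sided at a Benjamini-Hochberg adjusted p of 0.05. Calr was tested by exact permutation over 35 splits. On recovered reads, over 7 libraries, edgeR 4.0.16 called 0 genes and DESeq2 1.42.0 called 107. Wild-type pairs were told apart by their titles. Alternatives changed the pseudocount, filter, scaling, tool, table, covariates and libraries. The members, gene lists and tests were chosen with earlier results of these data known. Named genes were the 10 members, Calr, the 2 genes of smallest p in each of 8 lists, and transcripts holding at least 10% of a member's FPKM. Atp2a2-202 and the single marker genes were added after their values were seen. Marker lists were read as sums, and the erythroid and lymphoid lists also as means of log2 values. The scripts were tested on simulated data. Promoters came from RefSeq (GRCm38.p6).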

Additional observations from a re-analysis of the deposited data

How the results depend on the processing

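Orai1 was positive in every alternative run on mutant against wild-type. Among alternatives to the comparison over 7 libraries it ran from 0.32 (within the title series) to 0.41. With 1 library left out of the comparisons with a pair, it ran from 0.30 to 0.43 against wild-type 1 and 2. Against wild-type 3 and 4 it ran from 0.29 to 0.41. The sign of 6 other members depended on the wild-type libraries used: without wild-type 3 and 4, Atp2a2 was 0.28, Atp2a3 0.13, Itpr2 0.027, Stim1 0.024, Stim2 0.0073 and Orai2 0.26, Vdac1 was -0.073, the members' median was 0.059 and limma called 51 genes. With wild-type 1 and 2 left out the median was -1.18, with 6828 genes and 6 members called. The length slope as a covariate gave 127 genes called, a median of 0.039, and Atp2a2 at 0.25, Atp2a3 at 0.062, Itpr2 at 0.016, Stim2 at 0.0055 and Orai2 at 0.20. The title series as a covariate gave 3597 genes and 5 members called. Within the series 6010 genes and 6 members were called (median -1.13), and outside it 1022 genes, with Tpcn1 at 0.064 and Vdac1 at -0.022. DESeq2 called 107 genes over 7 libraries. For Calr, FPKM gave -0.13 (exact permutation p = 0.0286). The cause of these differences was not tested. The median of all genes moved by at most 0.03 between scalings. Pseudocount, filter and scaling reversed no member.

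Against wild-type 1 and 2, 21 genes were called with edgeR, 281 with DESeq2 and 1 with FPKM, and FPKM gave Itpr2 at -0.51, Stim1 at -0.016 and Stim2 at -0.018. With 1 library left out the count there ran from 0 (without wild-type 1) to 769 (without mutant 2), through 9 without wild-type 2, 24 without mutant 1 and 197 without mutant 3. Atp2a3 ran from -0.16 (without mutant 2) to 0.41, Itpr2 from -0.12 to 0.18, Stim1 from -0.053 to 0.10, Stim2 from -0.14 to 0.16 and Orai3 from -0.031 to 0.21. Against wild-type 3 and 4 it ran from 1483 (without wild-type 3) to 8760.0 (without mutant 2), with 1934 without wild-type 4 and 4254 without mutant 1, and members called from 4 to 9. A lone library left in a group was assumed to vary as the others do. Between the wild-type pairs Orai1 was -0.0021 with DESeq2 and ran from -0.045 to 0.079 with 1 library left out, and Itpr2 was -0.022 in FPKM.

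Transcripts called numbered 3 with no filter, 2 without wild-type 3 and 4, 6778 when wild-type 1 and 2 were left out, and 0 to 1 with 1 library left out. Without wild-type 3 and 4, Atp2a2-201 was 0.25, Atp2a3-201 0.20, Stim1-201 0.20, Orai2-201 0.26 and Orai2-203 0.061. Without wild-type 1 and 2, Itpr2-206 was 0.077, Itpr2-208 -0.14 and Stim2-201 -0.076. With 1 library left out, Itpr2-206 ran from -0.060 to 0.052, Itpr2-208 from -0.038 to 0.12, Stim2-201 from -0.089 to 0.12 and Orai2-203 from -0.24 to 0.098. No paired analysis was possible because the labels share no replicate number between the groups. Depth limits Itpr3 most, the member with the fewest reads.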

Other observations

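Mutant 2 was the mutant library nearest to wild-type 3 and 4 in the members: their median deviation from the mean of the 7 libraries was 0.0042 in mutant 2, -0.30 in mutant 1 and -0.39 in mutant 3 on the log2 scale. For wild-type 1 and 2 it was -0.40 and -0.24, and for wild-type 3 and 4 it was 0.87 and 0.67. The slope on exonic length had the same order among the mutants, at 0.01 in mutant 2, -0.12 in mutant 1 and -0.18 in mutant 3. Neutrophil and monocyte markers had another order, with mutant 2 and 3 both low and mutant 1 not. These are orders of 3 libraries, and the part of either in the members' values was not tested.

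Of the 8 promoter windows, the 4 with a CCAAT box were those of Itpr2, Stim2, Orai1 and Orai3, and those of Atp2a3, Itpr3, Stim1 and Orai2 had none. The first 4 genes had log2 differences between wild-type pairs of 0.50, 0.39, 0.02 and -0.26, and the other 4 had 2.28, 1.69, 1.34 and 1.54. This split was seen after the values were known and is a description of 8 genes, without a test.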
